A study of Mus musculus with 18 samples.

Results

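CD4+ T cells that lack *Nr4a1* and *Nr4a3* (double knockout, DKO) were compared between 2 sorted states, anergic and naive. The members of the comparison were the 3 DKO anergic and the 3 DKO naive libraries, 6 of 18 libraries in the series, chosen by their labels alone. Every library held RNA of CD25- CD4+ T cells sorted from the spleen and lymph nodes of a bone marrow chimera, an irradiated BoyJ host given a mixture of *Nr4a1*-/- *Nr4a3*-/- and WT marrow on the C57BL/6 background. Among its markers, the anergic gate took cells with much CD44, FR4 and CD73, and the naive gate took cells with little CD44, FR4 and CD73. Both DKO states were read directly after sorting, with no stimulation in culture. Chimeras 10, 11 and 12 each gave 1 library of either state, so the states were paired within a host. RNA of 2000 cell equivalents was amplified for each library by SMART-seq, which copies whole transcripts from little RNA. The germline alleles are missing from every cell of the donor throughout development, and the WT cells of the same host share its environment, which limits what the model isolates. WT anergic and WT naive libraries of the same 3 chimeras enter below only where the DKO difference was tested against theirs.

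Anergy is a state of T cells that met their antigen without adequate costimulation, or met self antigen for a long time, and then respond poorly to a new stimulus. Such cells keep high surface FR4 and CD73 and carry inhibitory receptors, ubiquitin ligases and phosphatases that damp signaling from the T cell receptor (TCR). Naive cells instead keep the homing receptors, interleukin-7 receptor and quiescence factors that let them circulate through lymphoid organs. NR4A proteins are orphan nuclear receptors induced by TCR signals, and they take part in anergy and in the regulatory T cell (Treg) program.

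The 3 DKO anergic libraries held 32529589 to 38380064 counts and the 3 DKO naive libraries 16122020 to 26837423, so low levels were read more precisely in anergic cells. Genes of smell and pheromone receptors, a gauge of stray reads in T cells, took 1932 to 1993 CPM (counts scaled to the library total) in DKO anergic and 2477 to 3154 CPM in DKO naive libraries. The same measure was 807 CPM in the WT naive and 571.8 CPM in the WT stimulated library of chimera 12, which stood apart from the other libraries of the shared fit. Entries with a blank gene name took 0.110% to 0.136% of counts in DKO anergic and 0.0694% to 0.0732% in DKO naive libraries. Levels below are the deposited TPM, which are scaled by gene length and library, given for chimeras 10, 11 and 12 in that order. Fold changes are log2 values of DKO anergic over DKO naive cells with their standard error (SE), from edgeR's quasi-likelihood test on the counts, and an adjusted p under 0.05 is a call. In RNA of a whole sorted population, fewer cells of a type and less RNA per cell cannot be told apart.

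DKO anergic cells had higher levels of 2248 (6.65%) and lower levels of 934 (2.76%) of the 33795 genes tested, with a median log2 fold change of 1.80 among the higher and −1.51 among the lower. At an unadjusted p under 0.05 the counts were 3674 and 2616. The direction held in 3 of 3 chimeras for 2244 of the higher and 932 of the lower genes. Many genes below were named for a small adjusted p in this comparison. Where their states do not overlap, that follows largely from this choice and only describes the levels. Differences above 5 on the log2 scale were found for 192 genes and below −5 for 19. The mean level in DKO naive cells was under 1 TPM for 443 of the higher genes, and 18 of the higher genes had no read in any DKO naive library. Across the 33795 genes the fold changes had a log2 median of −0.21, and it was 0.04 over the 15067 genes with a mean log2 CPM over 1. Of those 15067 genes, 12.9% were higher and 5.07% lower, and most members of the gene lists below are among them. List counts below are to be read beside these shares. The balance of higher and lower calls moved with the scaling: RLE size factors put that first median at −0.07 and called 2192 higher and 634 lower genes. Counts thinned to the smallest library put it at −0.45 and called 1844 higher and 2024 lower genes. The counts also depended on chimera 12, without which 4193 genes were higher and 3626 lower. Leaving out chimera 10 left 1458 higher and 360 lower calls, and leaving out chimera 11 left 1175 and 381. With only 2 WT libraries of chimera 12 removed, the naive and the stimulated one, 4108 genes were higher and 2191 lower, among them all of the 2248 and 934.

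**Figure D1:**
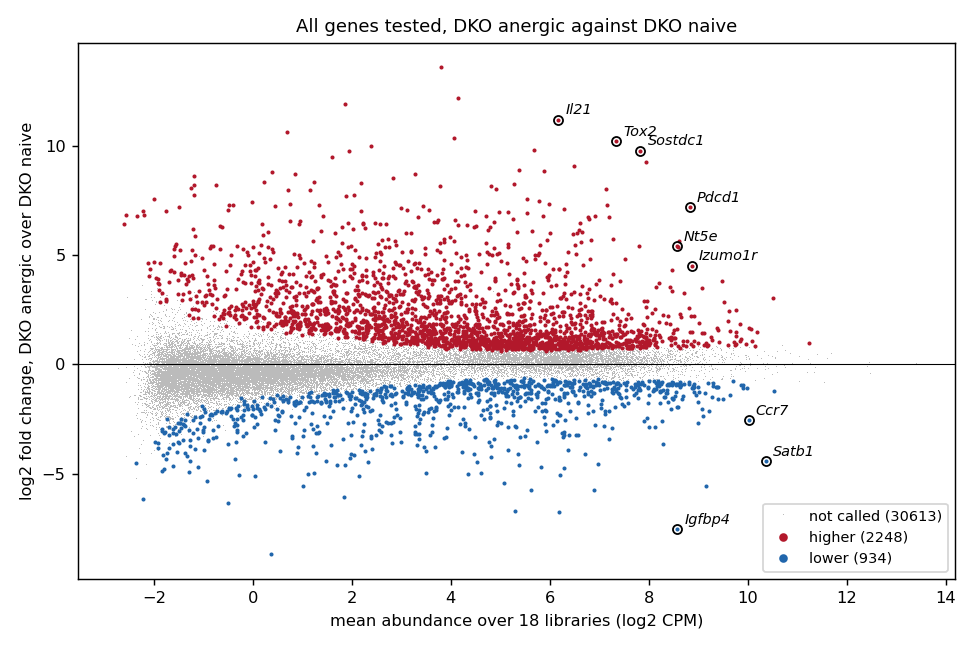
Each point is 1 of 33795 genes, with the mean abundance over 18 libraries (log2 CPM) on the x axis and the log2 fold change of DKO anergic over DKO naive cells on the y axis. The 2248 higher genes reach further from 0 than the 934 lower genes, and genes without a call are gray.

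Transcripts of the gate separated the states, which the sort fixed and which is no finding. *Izumo1r* (chr9:14885814-14903949; mm10 coordinates from GENCODE vM21 here and below) encodes FR4 and had 1577, 1611 and 1804 TPM in DKO anergic libraries, against 64.7, 88.7 and 89.97 TPM in DKO naive libraries. *Nt5e* (chr9:88327197-88372092), the gene of the ecto-5'-nucleotidase CD73, had 429, 450.1 and 356 TPM in DKO anergic libraries, against 10, 10.9 and 10.8 TPM in DKO naive libraries. *Cd44* (chr2:102811141-102901665), an adhesion receptor of activated and memory cells, had 144, 158 and 132 TPM in DKO anergic libraries, against 17.7, 16.6 and 17.1 TPM in DKO naive libraries. The states did not overlap for these 3 genes, and the transcripts ran the way of the protein gate. *Il2ra* (chr2:11642807-11693193), the gene of CD25, was low in both CD25- gates, at 5.95, 4.63 and 5.398 TPM in DKO anergic libraries, against 1.81, 2.06 and 2.01 TPM in DKO naive libraries (log2 fold change 1.57 ± 0.31, adjusted p = 0.00093). *Cd4* had 1131, 1191 and 1058 TPM in DKO anergic libraries, against 716, 652 and 656 TPM in DKO naive libraries (log2 fold change 0.87 ± 0.25, adjusted p = 0.0271), a call that was lost without chimera 10 (adjusted p = 0.138), without chimera 11 (adjusted p = 0.555) and with RLE size factors. *Tox2* (chr2:163203125-163324170), a transcription factor gene of the anergic state that the gate did not use, had 626, 689 and 572 TPM in DKO anergic libraries, against 0.893, 0.295 and 0.465 TPM in DKO naive libraries. Every DKO anergic library stood above 500 TPM and every DKO naive library below 1 TPM (log2 fold change 10.22 ± 0.47, adjusted p = 1.02e-13).

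Markers of other cell types were checked from lists. Of 4 markers of CD4 T cells, 3 were higher, and their summed level was 9502 to 10200.0 TPM in DKO anergic libraries and 5659 to 6145 TPM in DKO naive libraries. Among B cell markers, *Cd22*, a sialic acid receptor named here after its values were seen, had 49.5, 46.97 and 41.6 TPM in DKO anergic libraries, against 0.603, 0.681 and 0.549 TPM in DKO naive libraries, while *Cd79a* was lower (log2 fold change −0.999 ± 0.31, adjusted p = 0.0435) and *Ms4a1*, the gene of CD20, had 4.64, 5.78 and 5.95 TPM in DKO anergic libraries, against 5.28, 5.53 and 6.11 TPM in DKO naive libraries. *Cd8a* and *Cd8b1*, which encode the CD8 chains, summed to 39.7 to 43.99 TPM in DKO anergic libraries and 87.03 to 92.8 TPM in DKO naive libraries, nearly all of it *Cd8b1*, since *Cd8a* was at or under 0.0902 TPM in DKO anergic and 0.748 TPM in DKO naive libraries. The plasma cell markers *Jchain* and *Sdc1* summed to 2.35 to 24.4 TPM in DKO anergic libraries and 1.06 to 3.19 TPM in DKO naive libraries, and the natural killer (NK) cell markers *Ncr1*, *Klrb1c* and *Klrd1* to 19.3 to 28.6 TPM in DKO anergic libraries and 25.5 to 31.8 TPM in DKO naive libraries. Of these, *Klrb1c* was higher (log2 fold change 3.24 ± 0.41, adjusted p = 2.42e-06) and *Klrd1* lower (log2 fold change −6.05 ± 0.65, adjusted p = 1.67e-07), and *Jchain* had 20.2 TPM in the anergic library of chimera 11 and under 3 TPM in the other 5. Of 16 markers of NKT and γδ T, myeloid, dendritic, red cell and platelet origin, 13 were tested and 0 were called, against 6.65% higher and 2.76% lower over all genes. Most of the 13 did not reach a mean log2 CPM over 1, so the lack of calls among so few genes says little about such cells. The Treg markers *Foxp3*, *Ikzf2*, *Il2ra* and *Lrrc32* summed to 86.6 to 92.9 TPM in DKO anergic libraries and 7.65 to 9.78 TPM in DKO naive libraries. The part of such cells in the results below was not tested.

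The targeted genes were still read in DKO libraries. *Nr4a1* (chr15:101254269-101274795) had 162, 169 and 166 TPM in DKO anergic libraries, against 79.2, 107 and 87.6 TPM in DKO naive libraries, and 2 states that did not overlap differed by 0.998 ± 0.32 (adjusted p = 0.0477). WT anergic libraries had 170.5, 195 and 185 TPM and WT naive libraries 74.8, 89.8 and 86.6 TPM, so the level of this gene did not mark the genotype. *Nr4a3* (chr4:48045153-48086447) had 11.98, 15.7 and 10.97 TPM in DKO anergic libraries, against 2.395, 5.38 and 3.87 TPM in DKO naive libraries (log2 fold change 1.93 ± 0.27, adjusted p = 8.84e-06). Counts per gene do not show which exons were read, and these transcripts therefore check neither allele. *Acvrl1* (chr15:101128522-101145336), a receptor kinase gene of the BMP pathway that lies close to the targeted *Nr4a1* gene by these coordinates, did differ, with 1.197, 1.64 and 1.299 TPM in DKO naive and 41.6, 40.6 and 50.1 TPM in WT naive libraries. A part of this position in the difference was not tested. *Nr4a2* (chr2:57106830-57124003), the intact member of the family, had 25.3, 20.8 and 8.201 TPM in DKO anergic libraries, against 1.497, 1.87 and 1.901 TPM in DKO naive libraries. The states did not overlap, although the anergic library of chimera 12 was the lowest of its group (log2 fold change 3.56 ± 0.42, adjusted p = 6.43e-07). The call of *Nr4a1* was lost without chimera 10 (adjusted p = 0.3), without chimera 11 (adjusted p = 0.409), without the chimera block (adjusted p = 0.0646), with RLE factors and in thinned counts.

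Early growth response (EGR) factors are induced by TCR signals and are known for a role in anergy. Of the 8 genes of the Nr4a and Egr list, 7 were higher and 0 lower, with a median log2 fold change of 1.65, against −0.21 for the whole table. All 8 had a mean log2 CPM over 1, and over all such genes the median was 0.04. *Egr2* had 362, 298 and 273 TPM in DKO anergic libraries, against 38.8, 35.7 and 32.6 TPM in DKO naive libraries. Every anergic library stood far above every naive one (log2 fold change 3.25 ± 0.31, adjusted p = 1.86e-08). *Egr1* had 364, 314 and 309 TPM in DKO anergic libraries, against 135, 105 and 111 TPM in DKO naive libraries (log2 fold change 1.62 ± 0.30, adjusted p = 0.000433), and *Egr3* had 33.8, 17.6 and 22.6 TPM in DKO anergic libraries, against 10.8, 7.28 and 6.96 TPM in DKO naive libraries (log2 fold change 1.68 ± 0.32, adjusted p = 0.000541). Neither gene overlapped between the states, and the call of *Egr1* was lost without chimera 11 (adjusted p = 0.0633).

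Of 18 *Tox* family and other transcription factor genes tied to anergy, 13 were higher and 0 lower, with a median of 2.67. *Tox*, which encodes an HMG-box factor of chronically stimulated T cells, had 233, 246 and 199.9 TPM in DKO anergic libraries, against 37.3, 26.8 and 35.1 TPM in DKO naive libraries (log2 fold change 2.92 ± 0.26, adjusted p = 8.33e-09). *Bhlhe40*, a repressor of *Il10* in helper cells, had 284, 276 and 209 TPM in DKO anergic libraries, against 2.12, 3.07 and 2.48 TPM in DKO naive libraries. It was under 4 TPM in every naive library and above 200 TPM in every anergic one (log2 fold change 6.796 ± 0.42, adjusted p = 1.01e-11). *Nfil3*, the gene of a bZIP factor induced by interleukins, had 148, 206 and 157 TPM in DKO anergic libraries, against 1.98, 4.804 and 1.76 TPM in DKO naive libraries (log2 fold change 6.04 ± 0.38, adjusted p = 1.7e-11). *Maf*, an activator of *Il4*, *Il10* and *Il21*, had 62.1, 51.04 and 67.1 TPM in DKO anergic libraries, against 2.15, 2.81 and 2.57 TPM in DKO naive libraries (log2 fold change 4.75 ± 0.28, adjusted p = 5.75e-12). *Irf4*, which scales with TCR signal strength, had 57.5, 60.1 and 51.4 TPM in DKO anergic libraries, against 6.05, 5.28 and 6.86 TPM in DKO naive libraries (log2 fold change 3.37 ± 0.27, adjusted p = 7.84e-10). No anergic library of these 5 genes fell to the level of a naive one, which follows largely from the choice of genes by a small adjusted p.

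Inhibitory receptors split. Of 16 genes, 7 were higher and 3 lower, against shares of 12.9% and 5.07% over genes with a mean log2 CPM over 1, and the median was 0.59. *Pdcd1* encodes PD-1, the receptor that recruits the phosphatase SHP-2, and had 2529, 3240.0 and 2522 TPM in DKO anergic libraries, against 21.4, 19.3 and 21.2 TPM in DKO naive libraries (log2 fold change 7.201 ± 0.42, adjusted p = 4.2e-12). PD-1 transcripts were thus more abundant per length than those of *Izumo1r* in every anergic library. *Lag3*, whose product binds MHC class II, had 157, 142 and 165 TPM in DKO anergic libraries, against 1.38, 1.36 and 1.88 TPM in DKO naive libraries (log2 fold change 6.79 ± 0.29, adjusted p = 6.21e-14). *Tigit*, a receptor for CD155, had 308, 433 and 356 TPM in DKO anergic libraries, against 0.397, 0.467 and 1.94 TPM in DKO naive libraries. The naive levels of *Lag3* and *Tigit* stayed under 2 TPM in every library (log2 fold change 8.88 ± 0.43, adjusted p = 1.69e-13). *Ctla4*, which competes with CD28 for its ligands, had 292, 324 and 338 TPM in DKO anergic libraries, against 7.56, 6.57 and 10.3 TPM in DKO naive libraries (log2 fold change 5.45 ± 0.29, adjusted p = 8.7e-13), and *Cd160*, a receptor for HVEM, had 82.8, 71.5 and 78.98 TPM in DKO anergic libraries, against 2.94, 2.004 and 3.52 TPM in DKO naive libraries (log2 fold change 4.93 ± 0.32, adjusted p = 2.2e-11). *Havcr2*, which encodes TIM-3, did not follow, with 4.03, 4.05 and 3.01 TPM in DKO anergic libraries, against 5.67, 6.05 and 9.23 TPM in DKO naive libraries. Its values did not pass the test (log2 fold change −0.84 ± 0.46, adjusted p = 0.361). The 3 lower genes, named after their values were seen, were the collagen receptor gene *Lair1* (log2 fold change −3.85 ± 0.40), *Cd96*, which shares the ligand CD155 with *Tigit* (−1.23 ± 0.22), and *Cd200r1* (−0.74 ± 0.23), the receptor for CD200.

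Of 8 inhibitory ligands and surface proteins, 6 were higher and 0 lower, with a median of 2.19. *Cd200*, whose product engages CD200R on myeloid and T cells, had 304, 289 and 266 TPM in DKO anergic libraries, against 13.5, 9.96 and 17.2 TPM in DKO naive libraries (log2 fold change 4.59 ± 0.28, adjusted p = 1.01e-11). The rise of *Cd200* was larger than in WT cells of the same chimeras, where the log2 fold change was 2.81 ± 0.26 (difference DKO minus WT 1.78 ± 0.35, adjusted p = 0.0168). That difference was lost without chimera 10 (adjusted p = 0.315) and without chimera 11 (adjusted p = 0.317). *Pdcd1lg2*, which encodes the PD-1 ligand PD-L2, had 60.2, 56.6 and 56.5 TPM in DKO anergic libraries, against 2.98, 4.67 and 3.73 TPM in DKO naive libraries (log2 fold change 4.08 ± 0.32, adjusted p = 8.09e-10). *Nrn1*, the gene of neuritin, varied more in both states, with 168, 108 and 101 TPM in DKO anergic libraries, against 13.8, 3.94 and 11.3 TPM in DKO naive libraries, and its states still did not overlap (log2 fold change 3.94 ± 0.46, adjusted p = 5.77e-07). *Lgals1*, which encodes galectin-1, was already high in naive cells, with 413, 471 and 511 TPM in DKO anergic libraries, against 199, 238 and 184 TPM in DKO naive libraries (log2 fold change 1.29 ± 0.24, adjusted p = 0.000522), whereas *Fgl2*, a secreted ligand of Fc receptors, stayed low, with 10.7, 13.02 and 11.9 TPM in DKO anergic libraries, against 2.08, 0.793 and 1.67 TPM in DKO naive libraries (log2 fold change 3.095 ± 0.51, adjusted p = 8.03e-05).

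Ubiquitin ligases of anergy did not move as a group. Of 12 genes, 2 were higher and 1 lower, against shares of 6.65% and 2.76% over all genes, and the median was 0.07. All 12 had a mean log2 CPM over 1, where the shares were 12.9% and 5.07%, and in a fit of only such genes 4 of the 12 were lower. *Rnf128*, which encodes the ligase GRAIL, had 70.3, 53.6 and 45 TPM in DKO anergic libraries, against 0.877, 0.455 and 0.685 TPM in DKO naive libraries. It was under 1 TPM in every naive library and the states did not overlap (log2 fold change 6.505 ± 0.41, adjusted p = 1.66e-11). *Ndfip1*, an activator of the ligase ITCH, had 426, 398 and 402 TPM in DKO anergic libraries, against 154, 153 and 166 TPM in DKO naive libraries (log2 fold change 1.51 ± 0.27, adjusted p = 0.00024), and *Nedd4l* had 3.96, 3.43 and 4.12 TPM in DKO anergic libraries, against 11.7, 11.4 and 13.5 TPM in DKO naive libraries (log2 fold change −1.53 ± 0.19, adjusted p = 1e-06). *Cblb*, which sets the threshold for costimulation, overlapped between the states, with 60.9, 64.01 and 45.5 TPM in DKO anergic libraries, against 41.8, 47.2 and 51.8 TPM in DKO naive libraries (log2 fold change 0.43 ± 0.24, adjusted p = 0.382). *Itch* had 60.03, 59.8 and 44.5 TPM in DKO anergic libraries, against 55.7, 47.9 and 58.4 TPM in DKO naive libraries (log2 fold change 0.17 ± 0.23, adjusted p = 0.766). *Dtx1*, a Notch pathway ligase of anergic cells, had 127, 86.7 and 120.1 TPM in DKO anergic libraries, against 234, 158 and 205 TPM in DKO naive libraries, and *Peli1*, which targets REL, had 147, 137 and 141 TPM in DKO anergic libraries, against 224, 207 and 241 TPM in DKO naive libraries. Neither passed the test, with an adjusted p of 0.0884 for *Dtx1* and 0.245 for *Peli1*, although both passed with TMM factors taken from genes with a mean log2 CPM over 1 (adjusted p = 0.00161 and 0.00145).

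Brakes on ERK and diacylglycerol signaling were called in both directions. Of 18 genes, 8 were higher and 3 lower, with a median of 0.86, against shares of 12.9% and 5.07% over genes with a mean log2 CPM over 1. *Dusp14*, a dual specificity phosphatase gene, had 48.9, 42.8 and 45.8 TPM in DKO anergic libraries, against 0.187, 0.0736 and 0.102 TPM in DKO naive libraries, so that every naive level was under 0.2 TPM (log2 fold change 8.54 ± 0.52, adjusted p = 6.68e-12). *Dusp4*, which acts on nuclear ERK, had 93.4, 113 and 49.4 TPM in DKO anergic libraries, against 1.02, 0.731 and 0.289 TPM in DKO naive libraries (log2 fold change 7.003 ± 0.43, adjusted p = 9.75e-12). *Spry1*, whose product blocks activation of RAS, had 226, 106 and 187 TPM in DKO anergic libraries, against 4.52, 4.04 and 2.65 TPM in DKO naive libraries. Its anergic libraries spanned a wide range that did not reach the naive values (log2 fold change 5.59 ± 0.45, adjusted p = 1.19e-09). *Dusp6*, a cytoplasmic ERK phosphatase, had 187, 174 and 153 TPM in DKO anergic libraries, against 45.6, 31.03 and 42.6 TPM in DKO naive libraries (log2 fold change 2.25 ± 0.26, adjusted p = 5.71e-07), and *Spred1* had 20.1, 14.5 and 12.6 TPM in DKO anergic libraries, against 5.96, 3.71 and 5.48 TPM in DKO naive libraries (log2 fold change 1.78 ± 0.26, adjusted p = 1.39e-05). The 3 lower genes, named after their values were seen, were *Dgka*, a diacylglycerol kinase gene (log2 fold change −1.23 ± 0.26), *Dusp5* (−0.95 ± 0.26) and *Dusp10* (−0.80 ± 0.23).

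Of 22 other negative regulators of TCR signaling, 9 were higher and 2 lower, with a median of 0.64. All 22 had a mean log2 CPM over 1, where the shares were 12.9% and 5.07%. *Rgs16*, a GTPase activator for G protein receptors, had 328, 350.2 and 262 TPM in DKO anergic libraries, against 0.468, 1.101 and 0.338 TPM in DKO naive libraries, with 18 reads at most in a naive library (log2 fold change 9.07 ± 0.52, adjusted p = 3.04e-12), and its relative *Rgs1* had 19.5, 15.7 and 15.8 TPM in DKO anergic libraries, against 2.48, 1.42 and 2.56 TPM in DKO naive libraries (log2 fold change 3.15 ± 0.31, adjusted p = 4.62e-08). *Lax1*, an adaptor that restrains lymphocyte signaling, had 589, 525 and 564 TPM in DKO anergic libraries, against 103, 106 and 112 TPM in DKO naive libraries (log2 fold change 2.52 ± 0.24, adjusted p = 1.63e-08). The 2 lower genes were *Pag1*, an adaptor that holds CSK at the membrane, with 4.88, 5.903 and 5.44 TPM in DKO anergic libraries, against 24.1, 25.96 and 27.2 TPM in DKO naive libraries (log2 fold change −2.11 ± 0.20, adjusted p = 2.73e-08), and *Socs3*, the feedback inhibitor of STAT3, with 64.3, 56.1 and 88.9 TPM in DKO anergic libraries, against 355, 272 and 350.3 TPM in DKO naive libraries (log2 fold change −2.13 ± 0.27, adjusted p = 1.73e-06). Neither overlapped between the states.

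**Figure D2:**
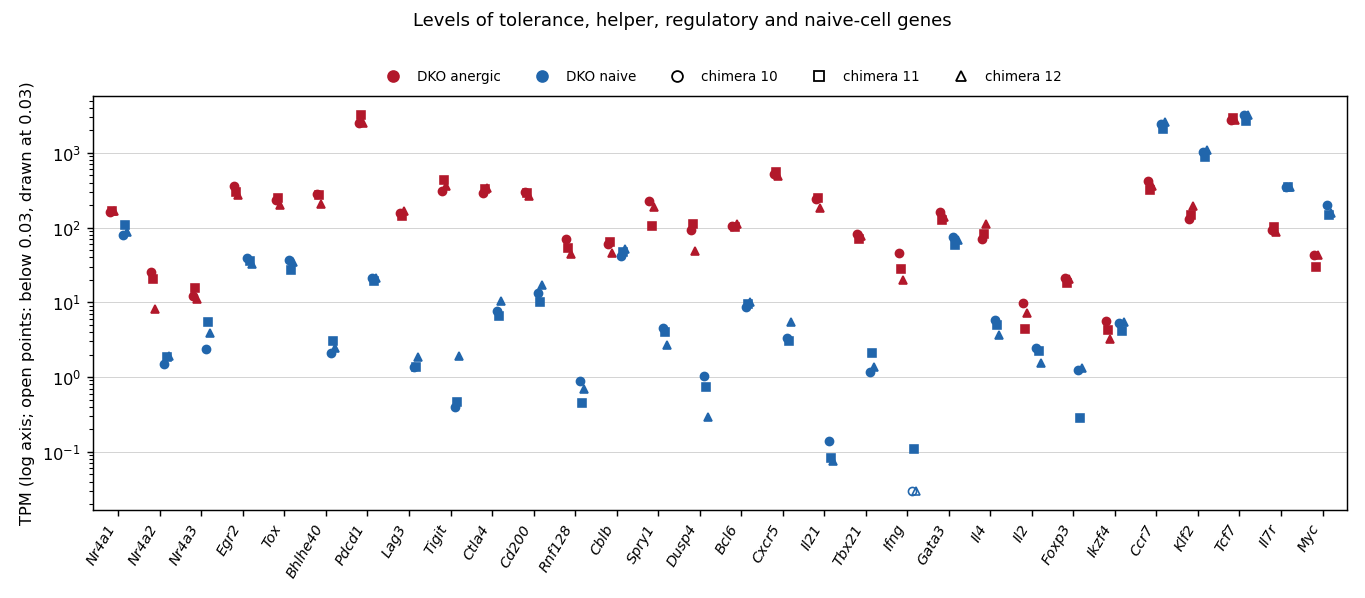
Levels in TPM on a log axis for 30 genes of tolerance, helper, regulatory and naive-cell programs, with DKO anergic libraries in red left of DKO naive libraries in blue and 1 marker shape for each of 3 chimeras. The states lie apart for most genes, while *Cblb*, *Tcf7* and *Ikzf4* overlap, and open points stand for levels below 0.03 TPM.

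Core TCR signaling genes were called in both directions. Of 23 proximal genes, 7 were higher and 3 lower, with a median of 0.28, and 5 were lower in a fit of only the genes with a mean log2 CPM over 1. In the main fit 12.9% of such genes were higher and 5.07% lower. *Zap70*, the kinase that binds the phosphorylated TCR chains, had 914, 817 and 826 TPM in DKO anergic libraries, against 223, 191 and 185 TPM in DKO naive libraries (log2 fold change 2.22 ± 0.30, adjusted p = 6.91e-06). *Malt1*, a protease of the pathway to NF-κB, had 115, 113 and 93.6 TPM in DKO anergic libraries, against 29.03, 22.6 and 28.1 TPM in DKO naive libraries (log2 fold change 2.15 ± 0.25, adjusted p = 6.86e-07). *Cd3e* had 1333, 1335 and 1281 TPM in DKO anergic libraries, against 694, 668 and 699.6 TPM in DKO naive libraries, and the CD3 gene *Cd3g* had 1088, 1145 and 1190.0 TPM in DKO anergic libraries, against 656, 688 and 677 TPM in DKO naive libraries. Both were called higher (log2 fold change 1.07 ± 0.27, adjusted p = 0.00742 for *Cd3e*), and both calls were lost without chimera 10 (adjusted p = 0.0892 and 0.141) and without chimera 11 (adjusted p = 0.29 and 0.411). *Cd3d* (log2 fold change 0.62 ± 0.26, adjusted p = 0.185) and the kinase gene *Lck* (log2 fold change 0.48 ± 0.30, adjusted p = 0.435) did not pass. The lower genes were the TEC kinase gene *Txk*, with 10.9, 9.74 and 10.9 TPM in DKO anergic libraries, against 88.2, 84.1 and 87.6 TPM in DKO naive libraries (log2 fold change −2.91 ± 0.23, adjusted p = 8.65e-10), the adaptor gene *Grap2*, with 8.95, 8.89 and 9.26 TPM in DKO anergic libraries, against 69.8, 68.2 and 64.5 TPM in DKO naive libraries (log2 fold change −2.78 ± 0.24, adjusted p = 3.7e-09), and *Rasgrp1*, which couples diacylglycerol to RAS, with 136, 146 and 105 TPM in DKO anergic libraries, against 441, 352 and 428 TPM in DKO naive libraries (log2 fold change −1.51 ± 0.26, adjusted p = 0.000141). None of these 3 overlapped between the states.

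Of 15 costimulatory receptors, 10 were higher and 0 lower, with a median of 1.22, against 12.9% and 5.07% over genes with a mean log2 CPM over 1. *Tnfrsf4*, which encodes OX40, had 725, 639 and 813 TPM in DKO anergic libraries, against 31.6, 24.6 and 28.6 TPM in DKO naive libraries (log2 fold change 4.801 ± 0.31, adjusted p = 2.12e-11). *Icos*, the receptor that supports helper cells in follicles, had 492, 536 and 504 TPM in DKO anergic libraries, against 44.8, 47.4 and 52.5 TPM in DKO naive libraries (log2 fold change 3.55 ± 0.27, adjusted p = 4.14e-10). *Tnfrsf9*, the gene of 4-1BB, had 90.3, 89.6 and 77.5 TPM in DKO anergic libraries, against 8.17, 5.68 and 6.03 TPM in DKO naive libraries (log2 fold change 3.82 ± 0.30, adjusted p = 5.91e-10), and *Tnfrsf8*, the gene of CD30, had 22.8, 29.99 and 20.9 TPM in DKO anergic libraries, against 1.97, 4.303 and 3.15 TPM in DKO naive libraries (log2 fold change 3.12 ± 0.44, adjusted p = 1.16e-05). *Tnfrsf18* (GITR) and *Tnfrsf1b* (TNFR2) were high in naive cells too, and differed by 1.63 ± 0.28 (adjusted p = 0.000133) and 1.89 ± 0.28 (adjusted p = 2.21e-05). *Cd28* had 287, 271 and 271 TPM in DKO anergic libraries, against 165, 155 and 195 TPM in DKO naive libraries (log2 fold change 0.83 ± 0.24, adjusted p = 0.0251). Its states did not overlap, and its call was lost without chimera 10 (adjusted p = 0.191), without chimera 11 (adjusted p = 0.549), with RLE factors and in thinned counts.

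Ligands of the TNF superfamily were higher in DKO anergic cells in 9 of 13 genes tested and lower in 0, with a median of 3.18. *Tnfsf8*, the CD30 ligand, was the most abundant of those described here, with 944, 831 and 784 TPM in DKO anergic libraries, against 67.3, 65.8 and 80.5 TPM in DKO naive libraries (log2 fold change 3.74 ± 0.31, adjusted p = 1.52e-09). *Tnfsf11*, which encodes RANKL, had 180.1, 170.2 and 166 TPM in DKO anergic libraries, against 2.17, 1.41 and 1.504 TPM in DKO naive libraries (log2 fold change 6.76 ± 0.44, adjusted p = 2.29e-11). *Tnfsf14*, the gene of LIGHT, had 107, 101 and 87.8 TPM in DKO anergic libraries, against 2.17, 3.25 and 1.39 TPM in DKO naive libraries (log2 fold change 5.58 ± 0.38, adjusted p = 4.57e-11). The states of these 3 ligands lay far apart. *Tnfsf9*, the ligand of 4-1BB, had 43.1, 58.6 and 41.8 TPM in DKO anergic libraries, against 2.26, 5.99 and 2.301 TPM in DKO naive libraries (log2 fold change 3.96 ± 0.53, adjusted p = 4.97e-06), and *Tnfsf13b*, which encodes the B cell survival factor BAFF, had 11.5, 12.4 and 8.71 TPM in DKO anergic libraries, against 1.01, 1.15 and 1.61 TPM in DKO naive libraries (log2 fold change 3.18 ± 0.51, adjusted p = 7.08e-05). *Cd70*, named after its values were seen, had no read in DKO naive libraries and 16, 16 and 12 reads in the anergic ones. Against a floor of 3 reads over the naive group, it was at least 10.2-fold higher.

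Promoter windows are shown for a receptor and a ligand described above, because each holds a motif of the AP-1 family, some of whose members are described among the immediate early genes. A window runs from 250 bases before to 50 after a start annotated by RefSeq (GRCm38.p6, 5′ to 3′ on the gene's strand), and a gene with several such starts has several windows. The motifs searched on both strands were the NR4A monomer site NBRE (AAAGGTCA) and the AP-1 site TGANTCA, and capitals mark the match. *Tnfrsf8* (chr4:145315115-145315414, minus strand) and *Tnfsf14* (chr17:57194132-57194431, minus strand) each hold an AP-1 match upstream of a start that lies within 4 bases of the 5′ end of the gene in GENCODE vM21.
Tnfrsf8: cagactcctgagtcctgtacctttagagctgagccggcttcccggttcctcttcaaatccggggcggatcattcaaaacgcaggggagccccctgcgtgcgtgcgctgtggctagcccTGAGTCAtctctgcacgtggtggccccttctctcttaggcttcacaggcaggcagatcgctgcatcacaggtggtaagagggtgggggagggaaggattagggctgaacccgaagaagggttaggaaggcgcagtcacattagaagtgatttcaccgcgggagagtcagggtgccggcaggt
Tnfsf14: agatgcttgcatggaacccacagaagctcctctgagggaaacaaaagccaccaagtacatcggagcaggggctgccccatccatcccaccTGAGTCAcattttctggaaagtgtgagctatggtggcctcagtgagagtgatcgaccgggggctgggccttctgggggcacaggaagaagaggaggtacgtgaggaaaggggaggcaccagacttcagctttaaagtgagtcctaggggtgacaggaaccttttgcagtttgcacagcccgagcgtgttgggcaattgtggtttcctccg

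Of 214 named genes, 155 had a window and 18 of these held either motif. For *Zap70*, *Tnfrsf9* and *Ccr4* the matching window belongs to a start 17186, 13437 and 8372 bases downstream of the 5′ end of the gene in GENCODE vM21. NBRE was found in a window of 0.847% of the 1653 genes higher in DKO anergic cells, of 1.46% of 615 lower genes and of 1.58% of 17567 genes tested, counting those with a window. The AP-1 letters were found in 8.65%, 5.69% and 8.36% of the same genes. A match is a description of the letters in the window, not a binding site.

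Cytokine genes that were called were higher in DKO anergic cells with 1 exception. Of 22 cytokine and chemokine genes tested, 15 were higher and 1 lower, with a median of 2.71. *Il21*, the cytokine of T cell help to B cells, had 243, 252 and 182 TPM in DKO anergic libraries, against 0.139, 0.0816 and 0.0752 TPM in DKO naive libraries (log2 fold change 11.19 ± 0.57, adjusted p = 4.24e-13). *Ifng*, the interferon of T helper 1 (Th1) cells, had 45.3, 28.1 and 20.1 TPM in DKO anergic libraries, against 0, 0.111 and 0 TPM in DKO naive libraries. Only 1 read of *Ifng* was counted over the 3 naive libraries, and the ratio was 869 with a 95% counting interval of 156 to 34300. *Il4*, the Th2 cytokine, had 69.5, 80.9 and 113 TPM in DKO anergic libraries, against 5.74, 4.899 and 3.71 TPM in DKO naive libraries (log2 fold change 4.402 ± 0.55, adjusted p = 1.5e-06), and *Csf1*, the macrophage growth factor, had 216, 161 and 139 TPM in DKO anergic libraries, against 2.16, 3.496 and 2.88 TPM in DKO naive libraries (log2 fold change 6.03 ± 0.33, adjusted p = 1.65e-12). *Il10*, an anti-inflammatory cytokine, had 17.7, 10.8 and 23.4 TPM in DKO anergic libraries, against 3.896, 2.62 and 2.87 TPM in DKO naive libraries (log2 fold change 2.67 ± 0.55, adjusted p = 0.00126), and *Cxcl10*, a ligand of CXCR3, had 40.8, 36.9 and 51.1 TPM in DKO anergic libraries, against 4.26, 4.32 and 4.04 TPM in DKO naive libraries (log2 fold change 3.503 ± 0.34, adjusted p = 2.93e-08). *Areg*, an EGF family growth factor, had 159, 142 and 238 reads in DKO anergic and 0, 1 and 1 reads in DKO naive libraries, a ratio of 187 (95% counting interval 51.5 to 1550). Intervals and floors cover counting error only, since amplified reads are not independent molecules.

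*Il2*, the growth factor whose loss is the classical sign of anergy, was low in both states, with 9.93, 4.37 and 7.24 TPM in DKO anergic libraries, against 2.44, 2.25 and 1.56 TPM in DKO naive libraries. The states did not overlap (log2 fold change 1.83 ± 0.51, adjusted p = 0.0206), but the call was lost without chimera 10 (adjusted p = 0.202) and without chimera 11 (adjusted p = 0.102). In WT cells of the same hosts the log2 fold change of *Il2* was 0.56 ± 0.55, and the genotypes did not pass the test of the difference (difference DKO minus WT 1.27 ± 0.75, adjusted p = 0.486). The 1 lower cytokine gene was *Osm*, named after its values were seen, with 22.9, 22.7 and 25.7 TPM in DKO anergic libraries, against 51.6, 38.4 and 48.4 TPM in DKO naive libraries (log2 fold change −0.83 ± 0.26, adjusted p = 0.0421).

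T follicular helper (Tfh) genes were higher as a list, in 17 of 18 genes, with 0 lower and a median of 3.85. The list was chosen with earlier results of these data known and includes *Cebpa*, so its share is no independent evidence of a Tfh program. *Bcl6*, the master regulator of Tfh cells, had 105, 103 and 113 TPM in DKO anergic libraries, against 8.71, 9.61 and 10.01 TPM in DKO naive libraries (log2 fold change 3.64 ± 0.26, adjusted p = 1.01e-10). *Cxcr5*, the receptor that guides them to follicles, had 524, 556 and 492 TPM in DKO anergic libraries, against 3.35, 3.05 and 5.403 TPM in DKO naive libraries (log2 fold change 7.28 ± 0.41, adjusted p = 2.16e-12). *Ascl2*, which induces *Cxcr5*, had 2274, 3330 and 3213 reads in DKO anergic and 1, 0 and 0 reads in DKO naive libraries, a ratio of 6110 with a 95% counting interval of 1100 to 241000. *Sostdc1*, a secreted antagonist of BMP and WNT signals, had 2141, 2357 and 2223 TPM in DKO anergic libraries, against 1.71, 2.97 and 3.89 TPM in DKO naive libraries (log2 fold change 9.78 ± 0.43, adjusted p = 6.21e-14). *Sostdc1* was thus above 2000 TPM in every anergic library and under 4 TPM in every naive one. *Cebpa*, a basic leucine zipper factor gene better known from myeloid cells, had 1624, 1931 and 2082 reads in the anergic and none in the naive libraries, and was at least 1300-fold higher against a floor of 3 reads over the group. *P2rx7*, the ATP-gated channel that limits Tfh cells, had 185, 208 and 152 TPM in DKO anergic libraries, against 7.65, 7.02 and 6.496 TPM in DKO naive libraries (log2 fold change 4.81 ± 0.25, adjusted p = 4.56e-13), and *Sh2d1a*, which encodes the adaptor SAP, had 93.2, 103 and 103 TPM in DKO anergic libraries, against 24.3, 29.5 and 31.2 TPM in DKO naive libraries (log2 fold change 1.95 ± 0.23, adjusted p = 6.59e-07).

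Genes of the other helper lineages were called to differing extents. For Th1 genes the counts were 11 higher and 2 lower of 14, with a median of 2.56. *Tbx21*, which encodes T-bet, had 82.1, 70.04 and 76.5 TPM in DKO anergic libraries, against 1.17, 2.13 and 1.35 TPM in DKO naive libraries (log2 fold change 5.82 ± 0.46, adjusted p = 7.82e-10), and its target *Cxcr3*, a chemokine receptor, had 399, 264 and 356 TPM in DKO anergic libraries, against 0.421, 1.07 and 1.14 TPM in DKO naive libraries (log2 fold change 8.84 ± 0.51, adjusted p = 2.99e-12). *Nkg7*, a gene of cytotoxic granules, had 2421, 1446 and 2342 reads in DKO anergic and 2, 1 and 0 reads in DKO naive libraries, a ratio of 1430 with a 95% counting interval of 491 to 6960. *Il12rb1*, a chain of the interleukin-12 receptor, had 42.4, 42.8 and 45.5 TPM in DKO anergic libraries, against 7.08, 8.09 and 7.904 TPM in DKO naive libraries (log2 fold change 2.64 ± 0.26, adjusted p = 3.14e-08). The 2 lower Th1 genes, named after their values were seen, were *Runx3* (log2 fold change −1.71 ± 0.23) and the interleukin-18 receptor gene *Il18r1* (−1.48 ± 0.24).

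Of 9 Th2 genes tested, 4 were higher and 1 lower, with a median of 0.95, against 12.9% and 5.07% over genes with a mean log2 CPM over 1. *Gata3*, the Th2 regulator that naive cells also need, had 159.5, 125 and 138 TPM in DKO anergic libraries, against 75.1, 58.8 and 68.7 TPM in DKO naive libraries (log2 fold change 1.19 ± 0.22, adjusted p = 0.000465). The chemokine receptor genes *Ccr4*, with 24.5, 26.7 and 27.3 TPM in DKO anergic libraries, against 2.52, 3.1 and 4.35 TPM in DKO naive libraries (log2 fold change 3.12 ± 0.31, adjusted p = 4.12e-08), and *Ccr8*, with 88.1, 119.7 and 49.5 TPM in DKO anergic libraries, against 16.1, 10.1 and 6.74 TPM in DKO naive libraries (log2 fold change 3.05 ± 0.36, adjusted p = 6.76e-07), were also higher. *Il4ra*, the receptor for interleukin-4, went the other way, with 48.9, 51.2 and 38.5 TPM in DKO anergic libraries, against 363, 310.5 and 303 TPM in DKO naive libraries (log2 fold change −2.68 ± 0.30, adjusted p = 2.38e-07). Naive libraries were thus the higher ones for the receptor and the lower ones for *Il4* itself, without overlap in either gene.

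Of 11 Th17 genes tested, 7 were higher and 0 lower, with a median of 1.52, and all stayed under 20 TPM among those described here. *Rora* had 15.7, 17.8 and 15.4 TPM in DKO anergic libraries, against 3.63, 3.24 and 4.04 TPM in DKO naive libraries (log2 fold change 2.31 ± 0.25, adjusted p = 1.81e-07), and the aryl hydrocarbon receptor gene *Ahr* had 8.36, 5.28 and 7.198 TPM in DKO anergic libraries, against 2.23, 1.51 and 2.21 TPM in DKO naive libraries (log2 fold change 1.94 ± 0.31, adjusted p = 7.49e-05). *Il1r1* was called with an adjusted p of 0.00353 (0.0811 without chimera 10), *Ccr6* with 0.00123 (0.0959 without chimera 10) and *Tmem176b* with 0.0076 (0.059 without chimera 10 and 0.273 without chimera 11). *Il17a* itself had 0.0866, 0.349 and 1.26 TPM in DKO anergic libraries, against 0.726, 0.489 and 1.35 TPM in DKO naive libraries (log2 fold change −0.34 ± 1.05, adjusted p = 0.904).

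Of 17 Treg genes, 13 were higher in DKO anergic cells and 0 were lower, with a median of 1.97, but their levels differed widely. *Foxp3* (chrX:7573644-7595245), the master regulator of Tregs, had 20.9, 17.9 and 20.3 TPM in DKO anergic libraries, against 1.25, 0.281 and 1.34 TPM in DKO naive libraries (log2 fold change 4.55 ± 0.35, adjusted p = 4.13e-10). *Lrrc32*, which encodes GARP, had 5.604, 6.45 and 6.07 TPM in DKO anergic libraries, against 0.441, 0.488 and 0.7597 TPM in DKO naive libraries (log2 fold change 3.59 ± 0.37, adjusted p = 9.46e-08), and *Ikzf2*, which encodes Helios, had 60.5, 57.6 and 55.1 TPM in DKO anergic libraries, against 4.15, 6.19 and 5.67 TPM in DKO naive libraries (log2 fold change 3.57 ± 0.30, adjusted p = 2.19e-09). *Ikzf4*, the gene of Eos, overlapped between the states, with 5.54, 4.31 and 3.25 TPM in DKO anergic libraries, against 5.23, 4.08 and 5.51 TPM in DKO naive libraries (log2 fold change −0.04 ± 0.24, adjusted p = 0.962). *Nrp1*, a semaphorin receptor, had 271, 258 and 202 TPM in DKO anergic libraries, against 5.87, 6.28 and 6.65 TPM in DKO naive libraries (log2 fold change 5.42 ± 0.26, adjusted p = 1.69e-13), and *Il2rb*, the shared chain of the interleukin-2 and interleukin-15 receptors, had 807, 778 and 704 TPM in DKO anergic libraries, against 20.8, 16.5 and 25.4 TPM in DKO naive libraries (log2 fold change 5.36 ± 0.31, adjusted p = 3.91e-12). *Nrp1* and *Il2rb* thus stood far above *Foxp3* on the TPM scale in every anergic library.

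The step in 8 of these 17 genes was smaller than in WT cells and in none larger, and the list's median was 4.84 in WT cells. WT anergic libraries had 447, 496 and 533 TPM of *Foxp3* and WT naive libraries 1.59, 1.6 and 1.22 TPM, and the difference passed the test (difference DKO minus WT −3.63 ± 0.46, adjusted p = 0.000215). For *Ikzf4* it was −3.37 ± 0.34 (adjusted p = 2.63e-05), for *Lrrc32* −3.62 ± 0.52 (adjusted p = 0.000849) and for *Itgae*, which encodes the integrin chain CD103, −3.21 ± 0.40 (adjusted p = 0.000215). *Penk*, the proenkephalin gene, had 12.3, 1.06 and 3.81 TPM in DKO anergic libraries, against 1.86, 1.58 and 2.42 TPM in DKO naive libraries (log2 fold change 1.55 ± 0.49, adjusted p = 0.0454). Chimera 10 carried that call, which was lost without it (adjusted p = 0.925), and the levels of the states overlapped. The summed Treg markers came to 86.6 to 92.9 TPM in DKO anergic and 706 to 960 TPM in WT anergic libraries. A different share of Tregs in the gate and less transcript per cell cannot be told apart here.

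Naive and quiescence genes made the largest group of lower genes. Of 32, 19 were lower and 1 was higher, with a median of −1.53, against 2.76% lower over all genes tested. All 32 had a mean log2 CPM over 1, and over all such genes 5.07% were lower. *Igfbp4*, a binding protein of insulin-like growth factors, had 3.15, 3.72 and 6.03 TPM in DKO anergic libraries, against 912, 807 and 835 TPM in DKO naive libraries (log2 fold change −7.53 ± 0.35, adjusted p = 1.02e-13). *Ly6c1*, a surface antigen of resting T cells, had 5.62, 0.791 and 2.74 TPM in DKO anergic libraries, against 279, 349 and 377 TPM in DKO naive libraries (log2 fold change −6.74 ± 0.46, adjusted p = 5e-11), and *Dapl1* had 7.32, 4.96 and 7.85 TPM in DKO anergic libraries, against 232, 217 and 276 TPM in DKO naive libraries (log2 fold change −5.04 ± 0.28, adjusted p = 2.25e-12). *Satb1*, a chromatin organizer, had 7.35, 7.52 and 9.68 TPM in DKO anergic libraries, against 202, 164 and 202 TPM in DKO naive libraries (log2 fold change −4.42 ± 0.29, adjusted p = 2.62e-11). Anergic libraries held a small fraction of the naive level of these genes in each chimera. *Ccr7*, the receptor that brings T cells to lymph nodes, had 424, 318 and 363 TPM in DKO anergic libraries, against 2438, 2119 and 2580.0 TPM in DKO naive libraries (log2 fold change −2.56 ± 0.27, adjusted p = 1.54e-07), and *S1pr1*, the receptor by which they leave, had 226, 227 and 280.4 TPM in DKO anergic libraries, against 1238, 982 and 1278 TPM in DKO naive libraries (log2 fold change −2.11 ± 0.26, adjusted p = 1.08e-06). *Klf2*, which activates *S1pr1*, had 130.2, 146 and 195 TPM in DKO anergic libraries, against 1040.0, 884 and 1083 TPM in DKO naive libraries (log2 fold change −2.57 ± 0.27, adjusted p = 1.4e-07).

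Anergic cells thus kept sizeable levels of *Ccr7* and *S1pr1* that still lay below every naive library. *Lef1*, a factor of the WNT pathway, had 72.1, 74.7 and 72.5 TPM in DKO anergic libraries, against 356, 288 and 362 TPM in DKO naive libraries (log2 fold change −2.05 ± 0.25, adjusted p = 1.22e-06), and *Il7r*, the survival receptor of resting cells, had 92.3, 103 and 87.5 TPM in DKO anergic libraries, against 354, 351 and 348 TPM in DKO naive libraries (log2 fold change −1.76 ± 0.23, adjusted p = 3.28e-06). *Foxo1*, which drives *Klf2* and *Il7r*, had 62.4, 64.1 and 57.4 TPM in DKO anergic libraries, against 179.5, 151 and 170.3 TPM in DKO naive libraries (log2 fold change −1.31 ± 0.25, adjusted p = 0.00057). *Tcf7*, which encodes TCF-1, did not follow, with 2738, 2943 and 2765 TPM in DKO anergic libraries, against 3245, 2671 and 3229 TPM in DKO naive libraries (log2 fold change 0.03 ± 0.27, adjusted p = 0.971). The states overlapped for *Tcf7*. The 1 higher gene, *Ramp1*, a receptor chain for the neuropeptide CGRP named after its values were seen, had 182, 161 and 185 TPM in DKO anergic libraries, against 80.95, 73.1 and 66.1 TPM in DKO naive libraries (log2 fold change 1.38 ± 0.25, adjusted p = 0.00028).

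**Figure D3:**
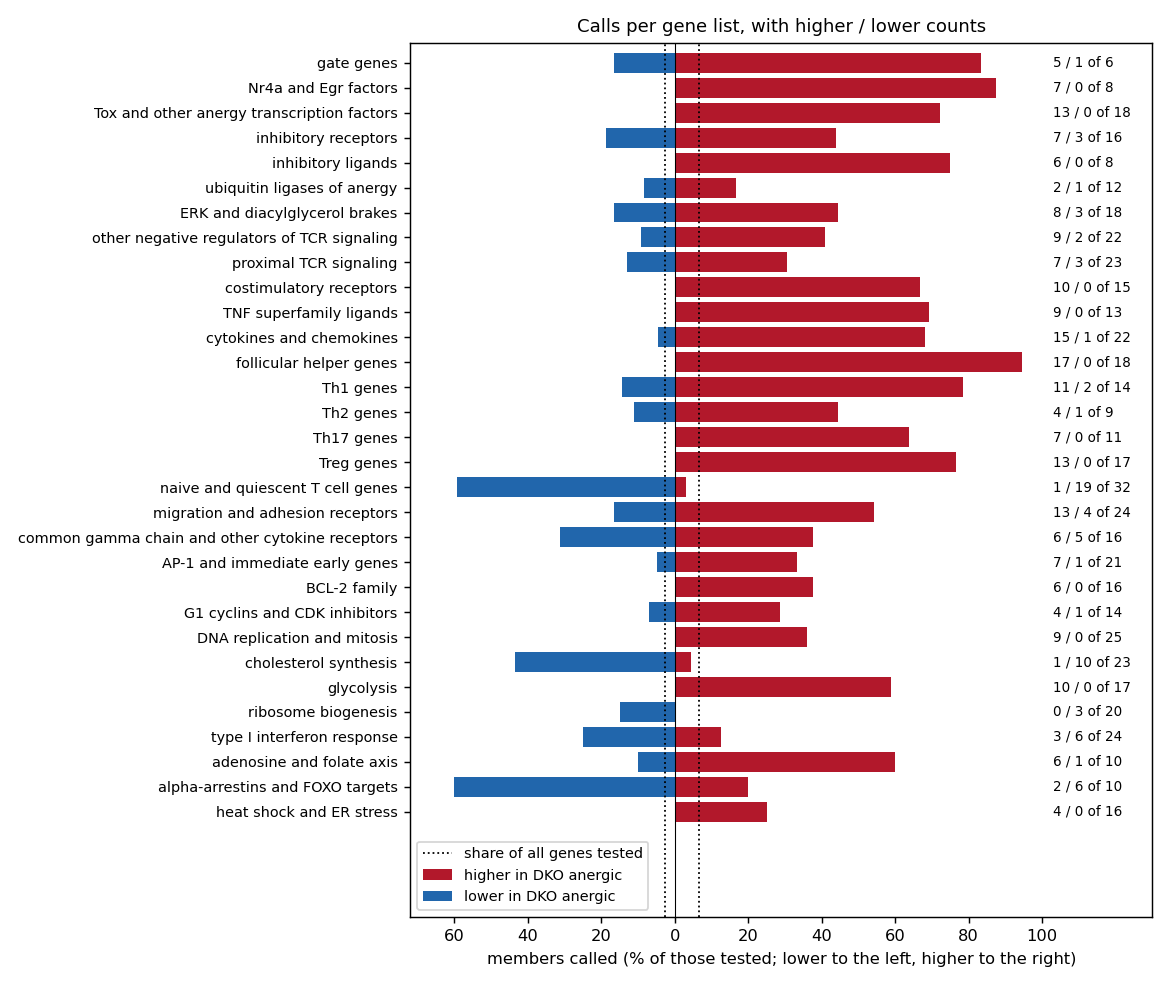
Bars give the share of tested members called higher (red, to the right) or lower (blue, to the left) in DKO anergic cells for 31 gene lists, with the counts at the right, and dotted lines mark the shares over all genes tested, 6.65% higher and 2.76% lower. The Tfh list has the largest share of higher members (17 of 18), and the lists of naive cell genes (19 of 32) and of arrestins and FOXO targets (6 of 10) have the largest shares of lower ones. Lists were chosen with earlier results of these data known, so the shares only describe these lists.

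Migration receptors moved in both directions, with 13 higher and 4 lower of 24 tested and a median of 1.34. Over genes with a mean log2 CPM over 1 the shares were 12.9% and 5.07%. *Itgb1*, the integrin chain of VLA receptors, had 1117, 957 and 827 TPM in DKO anergic libraries, against 58.2, 47.2 and 52.4 TPM in DKO naive libraries (log2 fold change 4.34 ± 0.28, adjusted p = 2.58e-11). *Cxcr6*, a receptor of tissue-dwelling T cells, had 54.95, 53.2 and 53.3 TPM in DKO anergic libraries, against 1.699, 3.19 and 2.66 TPM in DKO naive libraries (log2 fold change 4.56 ± 0.38, adjusted p = 2.19e-09). *Cx3cr1*, the fractalkine receptor, varied between chimeras, with 24.5, 50.1 and 10.2 TPM in DKO anergic libraries, against 0.459, 0.762 and 0.0878 TPM in DKO naive libraries, yet no anergic library overlapped the naive ones (log2 fold change 6.03 ± 0.53, adjusted p = 4.72e-09). Besides *S1pr1*, the lower genes, named after their values were seen, were *Selplg*, which encodes the selectin ligand PSGL-1 (log2 fold change −2.36 ± 0.26), *S1pr4* (−1.305 ± 0.23) and *Itgb7* (−1.04 ± 0.25).

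Of 16 cytokine receptors, 6 were higher and 5 lower, with a median of −0.25, against 12.9% and 5.07% over genes with a mean log2 CPM over 1. *Il9r*, the interleukin-9 receptor, had 30.6, 23.3 and 22.3 TPM in DKO anergic libraries, against 0.393, 0.145 and 0.03999 TPM in DKO naive libraries (log2 fold change 7.14 ± 0.58, adjusted p = 1.39e-09), and *Il10ra* had 75.8, 85.04 and 87.7 TPM in DKO anergic libraries, against 23.03, 21.3 and 31.3 TPM in DKO naive libraries (log2 fold change 1.87 ± 0.22, adjusted p = 6.67e-07). *Ifngr2*, a chain of the receptor for interferon-γ, had 11.6, 15.7 and 13.5 TPM in DKO anergic libraries, against 76.5, 77.01 and 71.3 TPM in DKO naive libraries (log2 fold change −2.33 ± 0.26, adjusted p = 2.34e-07). The anergic libraries thus had more *Ifng* and fewer transcripts of its receptor chain than any naive library. The other 4 lower genes were *Il4ra* and *Il7r*, described above, and *Tgfbr3* (−1.72 ± 0.22) and *Ifngr1* (−1.495 ± 0.24), named after their values were seen.

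Immediate early genes split by member. Of 21, 7 were higher and 1 lower, with a median of 0.40. The lower count was near the share of 5.07% among genes with a mean log2 CPM over 1. *Batf*, an AP-1 factor that pairs with IRF4, had 483, 595 and 558 TPM in DKO anergic libraries, against 86.8, 114 and 105 TPM in DKO naive libraries (log2 fold change 2.56 ± 0.25, adjusted p = 3.75e-08). *Myc*, the growth regulator, had 42.8, 29.8 and 42.5 TPM in DKO anergic libraries, against 202, 145 and 156 TPM in DKO naive libraries (log2 fold change −2.02 ± 0.30, adjusted p = 2.4e-05). Neither overlapped between the states. *Fosl2* had 4.13, 5.38 and 3.702 TPM in DKO anergic libraries, against 1.695, 1.57 and 1.55 TPM in DKO naive libraries (log2 fold change 1.56 ± 0.32, adjusted p = 0.00138), and *Zfp36l1*, a destabilizer of mRNA, had 242, 198 and 195 TPM in DKO anergic libraries, against 104, 79.7 and 91.8 TPM in DKO naive libraries (log2 fold change 1.34 ± 0.29, adjusted p = 0.00179). *Junb* had 779.9, 722 and 763 TPM in DKO anergic libraries, against 421, 394 and 371 TPM in DKO naive libraries (log2 fold change 1.05 ± 0.29, adjusted p = 0.0171), *Jund* differed by 0.94 ± 0.27 and the inhibitor of NF-κB *Nfkbid* by 1.26 ± 0.30. *Jun*, with 12.6, 14.3 and 7.199 TPM in DKO anergic libraries, against 17.5, 25.4 and 17.1 TPM in DKO naive libraries (log2 fold change −0.67 ± 0.33, adjusted p = 0.291), and *Fosb* (log2 fold change 1.55 ± 0.51, adjusted p = 0.0604) did not pass, and *Fos* was near the threshold (log2 fold change 0.83 ± 0.26, adjusted p = 0.0478). Without chimera 11 the adjusted p was 0.0904 for *Zfp36l1*, 0.277 for *Junb*, 0.421 for *Jund*, 0.0934 for *Nfkbid* and 0.587 for *Fos*. Without chimera 10 it was 0.0518 for *Junb*, 0.0554 for *Nfkbid* and 0.188 for *Fos*, and without the chimera block it was 0.131 for *Fos*.

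Of 16 BCL-2 family genes tested, 6 were higher and 0 lower, with a median of 0.68, against 12.9% and 5.07% over genes with a mean log2 CPM over 1. The A1 paralogs *Bcl2a1d* and *Bcl2a1b*, survival genes that NF-κB induces, differed by 5.03 ± 0.33 (adjusted p = 3.19e-11) and 3.85 ± 0.31 (adjusted p = 1.05e-09), and reads may be split between such near-identical copies. *Pmaip1*, which encodes the killer protein NOXA, had 17.2, 26.6 and 13.4 TPM in DKO anergic libraries, against 1.38, 3.25 and 2.32 TPM in DKO naive libraries (log2 fold change 3.200 ± 0.42, adjusted p = 3.59e-06). Pro-survival and pro-death members were thus higher side by side. *Bcl2* had 67.7, 69.5 and 49.8 TPM in DKO anergic libraries, against 77.05, 74.9 and 76.2 TPM in DKO naive libraries (log2 fold change −0.14 ± 0.25, adjusted p = 0.817) and *Bcl2l11*, which encodes BIM, 12.6, 16.7 and 9.12 TPM in DKO anergic libraries, against 19.7, 18.7 and 21.4 TPM in DKO naive libraries (log2 fold change −0.50 ± 0.23, adjusted p = 0.243). The states did not overlap for either gene, and neither passed the test. *Bad* was called with an adjusted p of 0.00187 (0.0665 without chimera 11) and *Bik* with 0.0281 (0.283 without chimera 10 and 0.463 without chimera 11).

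Genes of CDK inhibitors and of replication were higher in part. Of 14 G1 genes tested, 4 were higher and 1 lower, the latter near the share of 5.07% among genes with a mean log2 CPM over 1. *Cdkn2c*, which encodes the CDK4 and CDK6 inhibitor p18, had 51.4, 49.5 and 43.9 TPM in DKO anergic libraries, against 3.21, 2.88 and 1.4 TPM in DKO naive libraries (log2 fold change 4.36 ± 0.46, adjusted p = 1.04e-07), and *Cdkn2b*, which encodes p15, had 10.2, 10.7 and 9.26 TPM in DKO anergic libraries, against 0.874, 0.103 and 0.142 TPM in DKO naive libraries (log2 fold change 4.83 ± 0.69, adjusted p = 1.17e-05). *Cdkn1a*, the p21 gene, had 4.34, 4.74 and 6.12 TPM in DKO anergic libraries, against 1.81, 0.524 and 0.835 TPM in DKO naive libraries (log2 fold change 2.25 ± 0.41, adjusted p = 0.000354). *Cdkn2d*, the p19 inhibitor gene, was lower, with 95.9, 92.6 and 109.8 TPM in DKO anergic libraries, against 286, 265 and 268 TPM in DKO naive libraries (log2 fold change −1.34 ± 0.27, adjusted p = 0.000858). The fourth higher gene, *Cdk6*, was called with an adjusted p of 0.0237, which was 0.0671 without chimera 10 and 0.269 without chimera 11.

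Of 25 genes of replication and mitosis, 9 were higher and 0 lower, with a median of 0.70. *Mcm6*, a subunit of the replicative helicase, had 300.3, 299 and 267 TPM in DKO anergic libraries, against 104, 83.7 and 88.5 TPM in DKO naive libraries (log2 fold change 1.78 ± 0.24, adjusted p = 7.04e-06). The proliferation marker *Mki67* stayed low in both states, with 8.44, 7.803 and 7.196 TPM in DKO anergic libraries, against 3.03, 4.69 and 3.68 TPM in DKO naive libraries (log2 fold change 1.19 ± 0.33, adjusted p = 0.0194). *Top2a*, a topoisomerase gene, had 9.91, 7.96 and 7.73 TPM in DKO anergic libraries, against 3.15, 3.27 and 4.32 TPM in DKO naive libraries (log2 fold change 1.39 ± 0.30, adjusted p = 0.00198). Without chimera 10 the adjusted p was 0.206 for *Mki67*, 0.103 for *Top2a*, 0.16 for the cyclin gene *Ccnb1*, 0.0731 for the reductase gene *Rrm2* and 0.111 for the thymidylate synthase gene *Tyms*. Without chimera 11 it was 0.152 for *Mki67*, 0.056 for *Top2a*, 0.0811 for *Ccnb1* and 0.215 for *Tyms*, so of these 6 genes only *Mcm6* was called under both.

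Of 17 glycolysis genes tested, 10 were higher and 0 lower, with a median of 0.92, although 3 were lower in a fit of only the genes with a mean log2 CPM over 1. *Tpi1*, triosephosphate isomerase, had 268, 474 and 302 TPM in DKO anergic libraries, against 55.2, 57.3 and 45.8 TPM in DKO naive libraries (log2 fold change 2.83 ± 0.31, adjusted p = 2.04e-07), and *Slc16a3*, a lactate exporter, had 11.6, 23.4 and 10.8 TPM in DKO anergic libraries, against 1.303, 1.02 and 1.302 TPM in DKO naive libraries (log2 fold change 3.75 ± 0.40, adjusted p = 1.29e-07). For both, the anergic library of chimera 11 was the highest. *Gapdh* had 702, 935 and 857 TPM in DKO anergic libraries, against 292, 324 and 304 TPM in DKO naive libraries (log2 fold change 1.56 ± 0.28, adjusted p = 0.000231). *Ldha*, which makes lactate, did not pass (log2 fold change −0.19 ± 0.28, adjusted p = 0.784), nor did the glucose transporter gene *Slc2a1*, with 60.9, 112 and 70.3 TPM in DKO anergic libraries, against 61.9, 63.8 and 62.1 TPM in DKO naive libraries (log2 fold change 0.48 ± 0.28, adjusted p = 0.398), or *Hk2* (log2 fold change 1.08 ± 0.50, adjusted p = 0.232). *Pgam1* and *Pfkp* were called (adjusted p = 0.000708 and 0.000981) but not without chimera 11 (adjusted p = 0.0626 and 0.135).

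Of 23 cholesterol genes, 10 were lower and 1 higher, with a median of −0.75. *Sqle*, squalene epoxidase, had 10.2, 9.63 and 6.82 TPM in DKO anergic libraries, against 46.3, 37.4 and 45.7 TPM in DKO naive libraries (log2 fold change −2.12 ± 0.27, adjusted p = 2.23e-06). *Idi1* and *Hmgcs1* were also lower (log2 fold changes −2.37 ± 0.34 and −1.54 ± 0.24). The 1 higher gene, *Pmvk*, was named after its values were seen (log2 fold change 0.94 ± 0.26, adjusted p = 0.0208).

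Of 20 ribosome biogenesis genes, 3 were lower and 0 higher, with a median of −0.50. They were *Wdr12*, a processing factor of the large subunit, with 10.1, 10.1 and 8.77 TPM in DKO anergic libraries, against 20.6, 23.04 and 21.4 TPM in DKO naive libraries (log2 fold change −1.03 ± 0.24, adjusted p = 0.0047), the nucleolar gene *Npm1* (log2 fold change −0.94 ± 0.27, adjusted p = 0.0271) and *Nop56* (log2 fold change −0.87 ± 0.26, adjusted p = 0.0356). All 3 calls were lost without chimera 10 (adjusted p = 0.065, 0.233 and 0.287), without chimera 11 (adjusted p = 0.142, 0.431 and 0.506), with RLE factors and with DESeq2. In a fit of only the genes with a mean log2 CPM over 1, 12 of the 20 were lower. *Ncl*, the nucleolin gene, had 141, 145 and 129 TPM in DKO anergic libraries, against 151, 145 and 146 TPM in DKO naive libraries (log2 fold change 0.05 ± 0.27, adjusted p = 0.953).

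Interferon response genes did not share a direction. Of 24, 3 were higher and 6 lower, with a median of −0.15. The higher count was near the share of 12.9% among genes with a mean log2 CPM over 1, where all 24 lie. *Oas2*, an antiviral synthetase gene, had 0.866, 0.642 and 0.497 TPM in DKO anergic libraries, against 25.6, 16.8 and 29.2 TPM in DKO naive libraries (log2 fold change −4.98 ± 0.37, adjusted p = 2.69e-10), whereas its relative *Oas1a* had 61.1, 60.4 and 66.7 TPM in DKO anergic libraries, against 19.9, 19.97 and 19.6 TPM in DKO naive libraries (log2 fold change 1.79 ± 0.23, adjusted p = 2.22e-06). *Ifit2* had 25.7, 25.8 and 22.2 TPM in DKO anergic libraries, against 67.8, 60.3 and 78.1 TPM in DKO naive libraries (log2 fold change −1.34 ± 0.20, adjusted p = 2.01e-05) and *Usp18*, a protease that removes ISG15, had 42.5, 30.04 and 44.3 TPM in DKO anergic libraries, against 96.8, 106 and 109 TPM in DKO naive libraries (log2 fold change −1.31 ± 0.21, adjusted p = 6.4e-05). The states did not overlap for these 4 genes. *Ifi27l2a* was called higher with an adjusted p of 0.00426 (0.0584 without chimera 11), and the call of *Ifit1* (log2 fold change −0.80 ± 0.24, adjusted p = 0.0334) was lost without either chimera 10 or 11 (adjusted p = 0.124 and 0.389) and without the chimera block (adjusted p = 0.111). *Isg15*, which encodes a ubiquitin-like modifier, did not pass (log2 fold change 0.46 ± 0.32, adjusted p = 0.488). The third higher gene was *Mx1* (1.64 ± 0.42) and the other lower genes were *Oasl1* (−1.02 ± 0.26) and *Bst2* (−0.78 ± 0.23), named after their values were seen.

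Extracellular adenosine is made by CD39 and CD73 and is sensed by G protein coupled receptors that restrain T cells. Of 10 genes of the adenosine and folate axis tested, 6 were higher and 1 lower, with a median of 1.45, and 2 of the higher genes belong to the gate. *Adora2a*, the main adenosine receptor gene of T cells, had 54.2, 66.2 and 86.7 TPM in DKO anergic libraries, against 13.6, 16.6 and 15.6 TPM in DKO naive libraries (log2 fold change 2.27 ± 0.25, adjusted p = 1.92e-07). *Slc29a1*, a nucleoside transporter, had 256, 225 and 231 TPM in DKO anergic libraries, against 40.5, 34.5 and 38.1 TPM in DKO naive libraries (log2 fold change 2.79 ± 0.26, adjusted p = 1.87e-08), and *Ada*, the deaminase that clears adenosine, had 2.38, 3.26 and 4.71 TPM in DKO anergic libraries, against 22.9, 26.7 and 28.7 TPM in DKO naive libraries (log2 fold change −2.82 ± 0.31, adjusted p = 2.06e-07). The receptor was thus higher and the clearing enzyme lower in every anergic library.

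Of 10 arrestin and FOXO target genes, 6 were lower and 2 higher, with a median of −0.999. *Pik3ip1*, an inhibitor of PI3 kinase, had 47.5, 50.2 and 49.1 TPM in DKO anergic libraries, against 244, 205 and 256 TPM in DKO naive libraries (log2 fold change −2.12 ± 0.25, adjusted p = 7.36e-07), and *Sesn1*, a stress sensor upstream of mTORC1, had 59.4, 58.5 and 51.5 TPM in DKO anergic libraries, against 137, 142 and 167 TPM in DKO naive libraries (log2 fold change −1.24 ± 0.24, adjusted p = 0.000566). *Arrdc4* was higher within each chimera, with 61.9, 70.7 and 38.7 TPM in DKO anergic libraries, against 22.1, 41.7 and 18.8 TPM in DKO naive libraries (log2 fold change 1.22 ± 0.26, adjusted p = 0.00148), although the naive library of chimera 11 was above the anergic one of chimera 12. The other higher gene, *Arrdc3*, was named after its values were seen (log2 fold change 0.80 ± 0.25, adjusted p = 0.0457).

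Of 16 heat shock and ER stress genes, 4 were higher and 0 lower, with a median of 0.35, and all 4 belong to the ER. Over genes with a mean log2 CPM over 1 the shares were 12.9% and 5.07%. *Hspa5*, which encodes the chaperone BiP, had 924, 897 and 832 TPM in DKO anergic libraries, against 320.2, 304 and 288 TPM in DKO naive libraries (log2 fold change 1.67 ± 0.29, adjusted p = 0.000221), and *Xbp1* had 184, 205 and 187 TPM in DKO anergic libraries, against 77.3, 82.2 and 80.3 TPM in DKO naive libraries (log2 fold change 1.398 ± 0.24, adjusted p = 0.000142). The disulfide isomerase genes *Pdia6* and *Pdia4* were called (adjusted p = 0.00362 and 0.0115) but not without chimera 11 (adjusted p = 0.225 and 0.375), and *Pdia4* also not without chimera 10 (adjusted p = 0.0662). *Hsp90ab1*, a cytosolic chaperone gene, was highest in chimera 11 in both states, with 1047, 1532 and 1020.0 TPM in DKO anergic libraries, against 811, 1163 and 720.3 TPM in DKO naive libraries (log2 fold change 0.55 ± 0.33, adjusted p = 0.414).

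The largest differences of genes with at least 20 TPM on average in one state lay partly outside these programs. Besides *Cebpa*, *Ascl2*, *Il21*, *Nkg7*, *Tox2*, *Sostdc1*, *Ifng* and *Rgs16*, the 12 largest increases held *Angptl2*, a secreted angiopoietin-like protein gene, with 681, 598 and 529 TPM in DKO anergic libraries, against 0.58, 1.78 and 1.07 TPM in DKO naive libraries (log2 fold change 9.27 ± 0.39, adjusted p = 6.21e-14). *Fam43a* had 233, 274 and 227 TPM in DKO anergic libraries, against 0.553, 0.0465 and 0.193 TPM in DKO naive libraries (log2 fold change 9.83 ± 0.59, adjusted p = 6.53e-12). Both were under 2 TPM in every naive library. *Dmwd* had 525, 634 and 581 reads in DKO anergic libraries and none in DKO naive ones, and was at least 402-fold higher. *Krt17*, a keratin gene, had 1160, 330 and 256 reads in the anergic and 0, 0 and 1 reads in the naive libraries, a ratio of 1210 (95% counting interval 217 to 47800), with the most reads in chimera 10.

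Besides *Igfbp4*, *Ly6c1*, *Dapl1* and *Oas2*, the 12 largest decreases held *Pdlim4*, a PDZ and LIM adaptor gene, with 0.555, 1.12 and 1.25 TPM in DKO anergic libraries, against 112, 110.4 and 108 TPM in DKO naive libraries (log2 fold change −6.72 ± 0.33, adjusted p = 2.33e-13). *Vipr1*, the receptor for vasoactive intestinal peptide, had 1.98, 1.901 and 3.85 TPM in DKO anergic libraries, against 165, 130.1 and 146 TPM in DKO naive libraries (log2 fold change −5.76 ± 0.29, adjusted p = 3.43e-13). *Slc16a5*, a monocarboxylate transporter gene, had 1.73, 0.745 and 3.37 TPM in DKO anergic libraries, against 125, 103 and 104 TPM in DKO naive libraries (log2 fold change −5.74 ± 0.37, adjusted p = 1.91e-11). Each was above 100 TPM in every naive library and under 4 TPM in every anergic one. *Itgb3*, the β3 integrin gene, had 1.69, 3.94 and 3.28 TPM in DKO anergic libraries, against 114, 97.8 and 109.7 TPM in DKO naive libraries (log2 fold change −5.04 ± 0.29, adjusted p = 2.78e-12), *Rras2*, which encodes a RAS-related GTPase, had 0.428, 1.72 and 1.01 TPM in DKO anergic libraries, against 45.4, 52.7 and 46.9 TPM in DKO naive libraries (log2 fold change −5.43 ± 0.36, adjusted p = 3.44e-11), and *Fam240a* had 2.03, 0.614 and 0.164 TPM in DKO anergic libraries, against 51.6, 45.9 and 39.2 TPM in DKO naive libraries (log2 fold change −5.55 ± 0.73, adjusted p = 3.44e-06). *Cd55*, which protects cells from complement, had 2.57, 2.104 and 2.35 TPM in DKO anergic libraries, against 65.96, 61.7 and 69.4 TPM in DKO naive libraries (log2 fold change −4.68 ± 0.24, adjusted p = 4.82e-13).

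**Figure D4:**
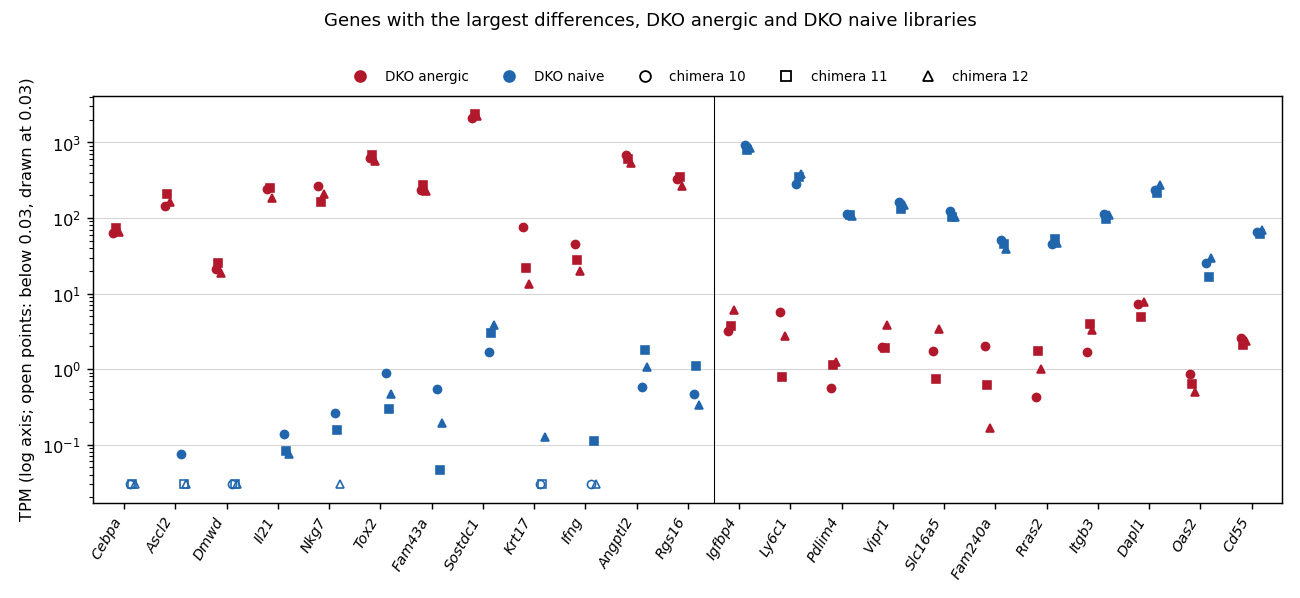
Levels in TPM on a log axis for the 12 genes with the largest increase and 11 of the 12 with the largest decrease, with DKO anergic libraries in red left of DKO naive libraries in blue and 1 marker shape for each of 3 chimeras. The states do not overlap for any of the 23 genes, which follows largely from their choice as called genes with the largest differences and 3 of 3 chimeras agreeing. Open points stand for levels below 0.03 TPM.

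The DKO step was set against the WT step of the same 3 chimeras by a test of the difference itself, DKO minus WT. Of 33795 genes, 77 had a more positive log2 step in DKO cells (0.228%) and 53 a more negative one (0.157%), and 1327 and 2260 passed at an unadjusted p under 0.05. Leaving out chimera 12 gave 325 and 616, chimera 10 gave 4 and 8, and chimera 11 gave 11 and 13. With the naive and stimulated WT libraries of chimera 12 removed, the counts were 202 and 103.

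Several genes were raised in DKO anergic cells beyond the WT step. *Apoe*, which encodes the lipid carrier apolipoprotein E, had 684, 1108 and 815 TPM in DKO anergic libraries, against 10.9, 8.63 and 8.42 TPM in DKO naive libraries, while WT anergic libraries had 95.3, 169 and 49.1 TPM and WT naive libraries 11.4, 9.95 and 11.2 TPM (difference DKO minus WT 3.601 ± 0.54, adjusted p = 0.0011). *Cxxc5*, a CXXC zinc finger gene, had 151, 176 and 122 TPM in DKO anergic libraries, against 1.58, 1.95 and 1.84 TPM in DKO naive libraries, and its step was larger by 3.26 ± 0.46 (adjusted p = 0.000697). *Lratd1* had 125, 73.3 and 69.1 TPM in DKO anergic libraries, against 0.987, 1.36 and 1.33 TPM in DKO naive libraries (difference DKO minus WT 3.77 ± 0.46, adjusted p = 0.00018). All 3 DKO anergic libraries of these genes were above all WT anergic ones. *Napsa*, an aspartic protease gene, had 52.6, 65.2 and 60.9 TPM in DKO anergic libraries, against 0.822, 0.807 and 1.49 TPM in DKO naive libraries (difference DKO minus WT 3.42 ± 0.50, adjusted p = 0.000946), and *Chn2*, a RAC-directed GTPase activator gene, had 83.9, 95.9 and 68.8 TPM in DKO anergic libraries, against 7.402, 6.87 and 6.74 TPM in DKO naive libraries (difference DKO minus WT 2.305 ± 0.30, adjusted p = 0.000279). Of the programs above, *Il21* (difference DKO minus WT 4.41 ± 0.74, adjusted p = 0.00364), *Sostdc1* (difference DKO minus WT 2.66 ± 0.49, adjusted p = 0.00794), *Tnfsf8* (difference DKO minus WT 2.27 ± 0.39, adjusted p = 0.00498) and *Dusp14* (difference DKO minus WT 3.003 ± 0.68, adjusted p = 0.0485) also had a larger step in DKO cells. The value for *Dusp14* rests in large part on naive levels near the floor, with 1 to 3 reads in a DKO naive library. Its means were 45.8 TPM in DKO and 27.8 TPM in WT anergic libraries, and 0.121 and 0.518 TPM in DKO and WT naive ones. Over the settings its difference ran from 1.12 to 3.95. Without chimera 10 the adjusted p was 0.0542 for *Apoe*, 0.057 for *Cxxc5*, 0.0542 for *Lratd1*, 0.148 for *Napsa*, 0.057 for *Il21*, 0.0932 for *Sostdc1*, 0.0657 for *Tnfsf8* and 0.183 for *Dusp14*. Without chimera 11 it was 0.0684 for *Napsa*, 0.076 for *Il21*, 0.27 for *Sostdc1*, 0.22 for *Tnfsf8* and 0.499 for *Dusp14*, and without chimera 12 it was 0.0658 for *Dusp14*.

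Some naive cell genes fell less in DKO than in WT cells. *Klf2* had a DKO step of −2.57 and a WT step of −4.98 ± 0.31 (difference DKO minus WT 2.41 ± 0.37, adjusted p = 0.00151), with 37.7, 49.8 and 42.97 TPM in WT anergic libraries, all below the DKO anergic ones. *Tdrp* had 9.74, 13.6 and 10.7 TPM in DKO anergic libraries, against 117, 116 and 123 TPM in DKO naive libraries (difference DKO minus WT 3.35 ± 0.38, adjusted p = 0.000114). *Igfbp4* was a further such gene (difference DKO minus WT 1.81 ± 0.40, adjusted p = 0.039; 0.0523 with RLE factors). *Pde3b*, a phosphodiesterase gene, did not pass in DKO cells, with 69.4, 88.5 and 57.5 TPM in DKO anergic libraries, against 103, 90.1 and 118 TPM in DKO naive libraries, whereas its WT log2 fold change was −2.74 ± 0.27 (difference DKO minus WT 2.35 ± 0.36, adjusted p = 0.00145). *Acvrl1*, which lies close to the targeted *Nr4a1* gene, had 0.262, 0.383 and 0.308 TPM in DKO anergic libraries, against 1.197, 1.64 and 1.299 TPM in DKO naive libraries and differed by 4.57 ± 0.54 (adjusted p = 0.000134), a value that rests on its low level in DKO naive cells. Without chimera 10 the adjusted p was 0.0816 for *Klf2*, 0.145 for *Igfbp4* and 0.057 for *Pde3b*, and without chimera 11 it was 0.491 for *Igfbp4* and 0.151 for *Pde3b*.

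Genes with a smaller step in DKO cells included *Gucy1a1*, a subunit of the nitric oxide receptor, with 4.88, 5.95 and 5.44 TPM in DKO anergic libraries, against 3.89, 5.73 and 5.39 TPM in DKO naive libraries, and 39.1, 35.1 and 39.4 TPM in WT anergic and 4.05, 5.78 and 1.48 TPM in WT naive libraries (difference DKO minus WT −2.97 ± 0.40, adjusted p = 0.000473). *Swap70*, an actin-binding protein gene, had 4.87, 5.16 and 2.68 TPM in DKO anergic libraries, against 3.94, 2.62 and 2.59 TPM in DKO naive libraries (difference DKO minus WT −3.12 ± 0.44, adjusted p = 0.000697). Both overlapped between the DKO states, and neither passed the DKO test (adjusted p = 0.704 and 0.297). *Cd55* and *Rras2* fell further in DKO than in WT cells, with differences of −2.09 ± 0.30 (adjusted p = 0.000849) and −2.47 ± 0.44 (adjusted p = 0.00645). Without chimera 10 these adjusted p values were 0.071 for *Cd55* and 0.0932 for *Rras2*, and without chimera 11 the value for *Cd55* was 0.18. With RLE size factors they were 0.0806 for *Cd55* and 0.0578 for *Rras2*.

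**Figure D5:**
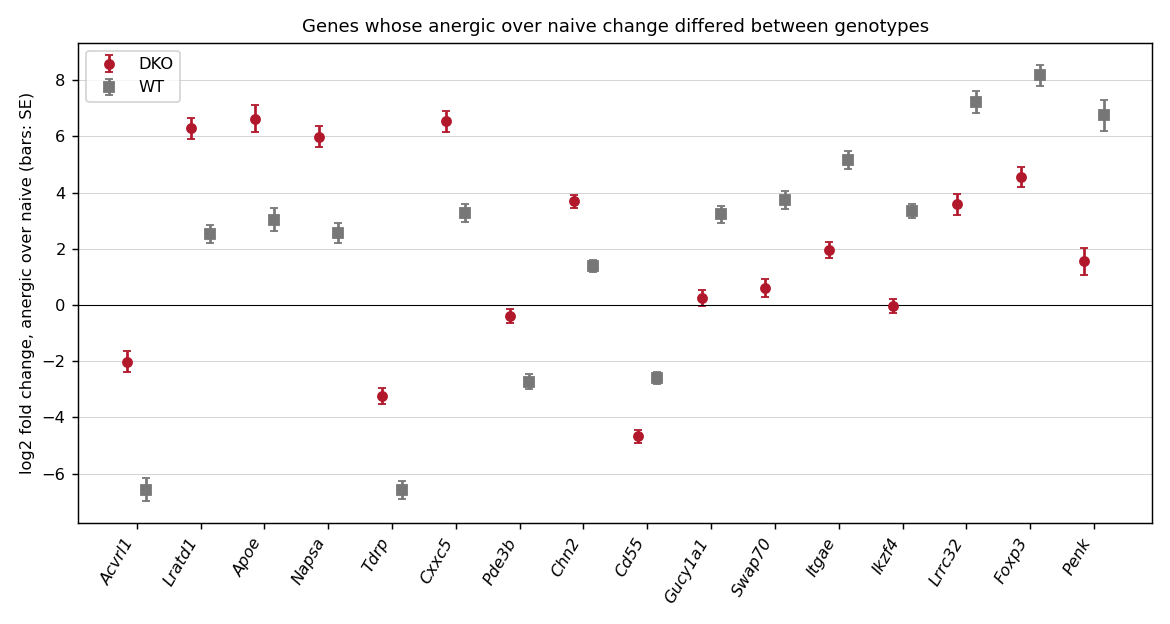
Log2 fold changes of anergic over naive cells for 16 genes in DKO (red circles) and WT (gray squares) cells, with bars of 1 SE. The *Foxp3*, *Lrrc32*, *Ikzf4*, *Itgae* and *Penk* points lie lower for DKO than for WT cells, and the *Lratd1*, *Apoe*, *Napsa* and *Cxxc5* points lie higher.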

How the data were processed

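The deposited tables held 18 libraries of CD25- CD4+ T cells in 6 groups of 3 chimeras, and 6 of these libraries are the DKO anergic and DKO naive groups. Read trimming by fastp, alignment to mm10 by STAR and counting per gene by featureCounts were done by the authors before the counts were deposited, with versions not given in the sources used here. Deposited TPM are also the authors' values, and the gene lengths behind them are likewise not given. Log2 fold changes, p-values and FDR of the authors' own edgeR comparisons were deposited too and not used. The sources do not state that strand was used in counting, so a gene and an antisense or overlapping neighbor, like near-identical paralogs, may share reads.

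Of 55401 entries, 117 had a blank name and were left out (0.0654% to 0.136% of a library's counts), and GENCODE vM21 (GRCm38, the sequence of mm10) gave coordinates for 53285 of the other 55284. The 33795 genes kept by filterByExpr on the group were tested in R 4.3.3 with edgeR 4.0.16 (TMM factors, glmQLFit and glmQLFTest, prior count 0.125, 6 groups with the chimera as a block, all 18 libraries in 1 fit). p-values were adjusted by Benjamini-Hochberg over all genes tested, and the SE is the absolute log2 fold change over the square root of F. Total counts were 16122020 to 38380064 in the 6 libraries. The procedure was tested on simulated data. Libraries of one group differed by more than counting noise, so none was counted as a duplicate.

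The labels give the chimera, so anergic and naive libraries of one number came from one host, as in the study's paired analysis. After removal of group means, their log2 CPM (prior count 2) correlated at 0.058 to 0.206 (median 0.076) within a chimera and at −0.199 to 0.11 (median −0.048) between chimeras.

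Gene lists (31 lists and 11 sets of cell type markers) were written from textbook knowledge, and members and lists were chosen with earlier results of these data known. Named are the gate, *Tox2* and *Nr4a* genes, the core members of each list plus 5 at most by lowest adjusted p, the genes the study's text names, the 12 largest changes each way with at least 20 TPM on average in the higher state and 3 of 3 chimeras agreeing, and the 8 genes with the smallest adjusted p each way in the genotype difference. Immunoglobulin, TCR segment and predicted genes were not eligible by size. A few genes that the rule names are not reported here. Alternatives were no block, RLE factors, TMM factors from genes with log2 CPM over 1, 2 other filters, only the groups compared, thinned counts, DESeq2 1.42.0, limma-trend (limma 3.58.1) on log2(TPM + 1), and leaving out each chimera or only the naive and stimulated WT libraries of chimera 12.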

Additional observations from a re-analysis of the deposited data

Results flagged for a closer look

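For 29 of the named genes, the step between anergic and naive cells differed between DKO and WT cells of the same 3 chimeras by edgeR's test of the difference itself, with an adjusted p under 0.05. Values are differences of log2 fold changes, DKO minus WT. No explanation was tested.

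A larger step up in DKO cells was found for *Il21* (4.41), *Lratd1* (3.77), *Apoe* (3.60), *Napsa* (3.42), *Cxxc5* (3.26), *Dusp14* (3.00), *Sostdc1* (2.66), *Chn2* (2.30), *Tnfsf8* (2.27) and *Cd200* (1.78). Of these, *Chn2* kept its call without each of the 3 chimeras in turn. A smaller step down in DKO cells was found for *Acvrl1* (4.57), *Tdrp* (3.35), *Klf2* (2.41), *Pde3b* (2.35) and *Igfbp4* (1.81), and the DKO step of *Pde3b* was not called (adjusted p = 0.470). *Acvrl1* and *Tdrp* kept their calls without each chimera in turn, and *Acvrl1* lies close to the targeted *Nr4a1* gene.

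A smaller step up in DKO cells, or no called step, was found for *Penk* (−5.19), *Foxp3* (−3.63), *Lrrc32* (−3.62), *Ccr6* (−3.39), *Ikzf4* (−3.37), *Itgae* (−3.21), *Swap70* (−3.12), *Gucy1a1* (−2.97), *Il2ra* (−2.73), *Arrdc4* (−2.41), *Ccr8* (−2.34) and *Itgb8* (−2.02). The genes without a called step in DKO cells were *Ikzf4*, *Gucy1a1* and *Swap70* (adjusted p = 0.962, 0.704 and 0.297). WT anergic libraries had 27.8, 33.4 and 41.4 TPM of *Il2ra*, against 5.95, 4.63 and 5.398 TPM in DKO anergic libraries, although both gates took CD25- cells. *Ccr8* had 88.1, 119.7 and 49.5 TPM in DKO anergic and 256, 327 and 333 TPM in WT anergic libraries, and *Ccr6* had 6.38, 3.83 and 2.93 and 25.02, 28.8 and 20.2 TPM in the same groups. A larger step down in DKO cells was found for *Rras2* (−2.47) and *Cd55* (−2.09). Without chimera 10 the adjusted p of the difference was 0.376 for *Ccr8*, 0.755 for *Ccr6*, 0.203 for *Itgb8* and 0.0542 for *Arrdc4*. Without chimera 11 it was 0.235 for *Il2ra*, 0.151 for *Ccr8*, 0.0808 for *Ccr6* and 0.0561 for *Arrdc4*. With RLE size factors it was 0.121 for *Ccr8*, 0.0547 for *Itgb8*, 0.0523 for *Igfbp4*, 0.0806 for *Cd55* and 0.0578 for *Rras2*. WT naive levels of some of these genes include the WT naive library of chimera 12, which stood apart, and *Dusp14* was not called without it and the WT stimulated library of that chimera (adjusted p = 0.0626).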

How the results depend on the processing

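Of 184 named genes called in the DKO comparison, 150 kept their direction and call under all 13 alternatives, and none of the 184 changed direction. Some named genes without a call did, such as *Itch* (log2 fold change −0.147 to 0.389 over the settings) and *Ikzf4* (−0.350 to 0.258). Against 2248 higher and 934 lower genes, leaving out 1 chimera gave 1175 to 4193 higher and 360 to 3626 lower genes, and for the genotype difference, against 77 and 53, it gave 4 to 325 and 8 to 616. The fit with only the groups compared called 5086 higher and 2456 lower genes (161 higher in the genotype difference). With the naive and stimulated WT libraries of chimera 12 removed, the counts were 4108 and 2191 (202 and 103 in the genotype difference). Lower genes numbered 1623 with TMM factors from genes with log2 CPM over 1 (158 and 102 in the genotype difference), 1683 among only those genes (205 and 107), 2024 in thinned counts and 2335 with limma-trend on log2(TPM + 1) (185 and 217). The genotype difference gave 382 and 106 genes with no low-count filter and 214 higher genes with DESeq2, which called 2482 higher and 844 lower genes in the DKO comparison. Without the chimera block, 2270 genes were higher and 969 lower, and 77 and 55 in the genotype difference. The block changed the calls of *Nr4a1*, *Fos* and *Ifit1* and the genotype difference of *Itgb8* (adjusted p = 0.0546 without it), and no other named call.

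RLE factors kept 611 of the 934 lower genes and 2055 of the 2248 higher ones, and the calls of *Cd28*, *Cd3g*, *Cd4*, *Fos*, *Ifit1*, *Jund*, *Nop56*, *Npm1*, *Nr4a1* and *Wdr12* and the genotype differences of *Ccr8*, *Cd55*, *Igfbp4*, *Itgb8* and *Rras2* were lost. Among only the genes with log2 CPM over 1, 16 of 23 cholesterol genes and 12 of 20 ribosome biogenesis genes were lower, against 10 and 3, as were 4 ubiquitin ligase (1), 5 proximal TCR (3), 3 glycolysis (0), 2 immediate early (1), 2 adenosine and folate (1) and, against 0, 1 each of the inhibitory ligand, costimulatory receptor and BCL-2 genes. The cause of these shifts was not tested. DKO naive libraries were the shallower ones, so folds of genes with few or no naive reads have wide limits. With 3 chimeras, calls near the threshold were often lost without chimera 10 or 11, fits that also had fewer libraries. With only the naive and stimulated WT libraries of chimera 12 removed, all calls of the DKO comparison were kept. There edgeR's adjusted p was 5.13e-06 for *Cd3e* and 8.3e-05 for *Cd4*. A lost call therefore does not show that the chimera left out carried the difference, and the reason for the losses was not tested.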
